A study of Schmidtea mediterranea with 36 samples.

Results

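The early wound response of *control(RNAi)* tail fragments was taken from 6 of the 36 libraries of the series, the 3 labelled *control(RNAi)* 6 HPA (hours post amputation) and the 3 labelled *control(RNAi)* 0.5 HPA. They were chosen by their labels alone. The series measured RNA by bulk RNAseq in the planarian *Schmidtea mediterranea*, in *alx-3(RNAi)* and *control(RNAi)* animals, as intact animals and as tail fragments at 5 times (0.5, 6, 24, 48 and 72 h after amputation), with 3 libraries in each group. The study asked how the homeobox gene *alx-3* acts in regeneration, and the comparison of the control libraries over time asks which transcripts change in a tail fragment without the knockdown between 0.5 and 6 HPA. All animals were asexual worms of the clonal strain CIW4, and all had received 9 RNAi feeds before amputation behind the pharynx. Control animals were fed double-stranded RNA against *GFP*, a gene that planarians lack, and this feeding is shared by both groups compared. The 0.5 HPA fragments had already been cut, the intact animals were whole worms with a head, and no uncut tail was measured, so genes that moved before 0.5 HPA cannot be seen as changes here. The number of fragments pooled in a library is not given in the sources used here.

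A planarian tail fragment rebuilds a head, brain and pharynx from neoblasts, the adult stem cells of these animals. Injury is known to switch on a program of wound-induced genes in epidermis, muscle and neoblasts within hours, at any wound and before the missing part is specified. Muscle cells carry much of the positional information, and the secreted Wnt ligand Wnt1 and the secreted Wnt inhibitor Notum, both wound-induced in muscle, are known to take part in the choice between tail and head.

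Values are normalized counts per 1 M (CPM), each library's deposited normalized counts divided by their total, which ran from 54.2 to 58.5 M at 6 HPA and from 50.9 to 55.6 M at 0.5 HPA. The 2 times stand in tables that the authors normalized separately, and every level set across times below rests on the division by the library total. Fold changes are differences of mean log2(CPM + 0.1), 6 HPA minus 0.5 HPA, with the standard error (SE) from limma, and calls are transcripts with an adjusted p under 0.05 (Benjamini-Hochberg, over all transcripts tested). Ribosomal RNA took 11.97%, 12.56% and 11.94% of the normalized counts at 6 HPA, against 12.20%, 12.93% and 12.69% at 0.5 HPA, and the two-sided exact permutation test gave p = 0.2 (3 against 3 libraries cannot go below 0.1).

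Of 22349 transcripts tested, 2038 (9.12%) were called between 6 and 0.5 HPA, 1200 (5.37%) higher and 838 (3.75%) lower at 6 HPA. Most of these changes were small. An absolute log2 fold change under 0.5 was found for 64.4% of the called transcripts, whereas 109 rose and 71 fell by at least 1, and 10 rose and 13 fell by at least 2. In each called transcript all libraries of one time lay above all libraries of the other, which held for 29.0% of the transcripts tested. Calls were made for 2.25% of transcripts with a mean under 2 CPM and for 20.2% of those at 50 CPM or more. Of these calls, 0% and 79.9% had an absolute log2 fold change under 0.5, so changes that small were not called among the weakest transcripts. The count of calls fell to 1097 without 6 HPA replicate 1, to 779 without 6 HPA replicate 3 and to 933 without 0.5 HPA replicate 2. With median-of-ratios scaling 72.9% of the calls were higher at 6 HPA, against 58.9% with scaling to the total.

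**Figure D1:**
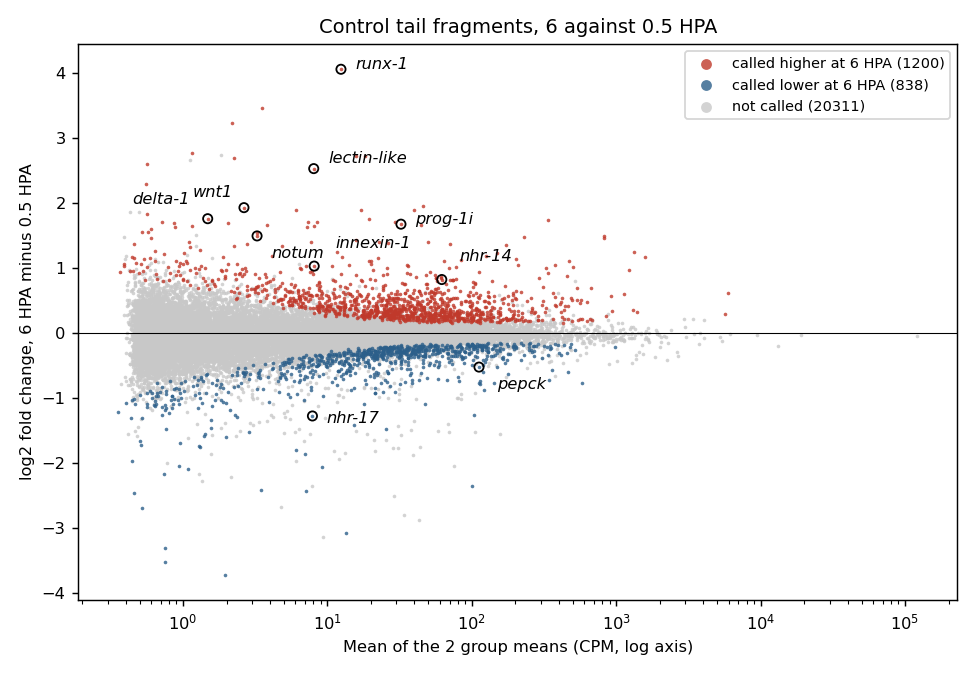
Log2 fold change of each tested transcript, 6 HPA minus 0.5 HPA (y axis), against the mean of the 2 group means in CPM (x axis, log scale), in *control(RNAi)* tail fragments. Red points are the 1200 transcripts called higher and blue points the 838 called lower at 6 HPA. The circled *runx-1* stands above every other called transcript.

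The largest rise of all called transcripts was that of a wound-induced gene. Of 8 wound-induced genes that the transcript IDs name, 5 rose, *runx-1*, *wnt1*, *delta-1*, *notum* and *follistatin*, and none fell (median log2 fold change 1.00, against −0.03 over all tested transcripts). The other 3 were not called, and of all transcripts 5.37% were called higher. The list includes genes that the study displayed from these libraries, so it is not independent evidence of a direction. In bulk tissue a change in the number of cells of a type and a change of RNA per cell cannot be told apart, for these genes and for all that follow.

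*runx-1*, a transcription factor of the Runx family, which is known to be wound-induced in neoblasts, was at 22.3, 24.8 and 23.3 CPM in the 6 HPA libraries, against 1.18, 1.14 and 1.68 CPM in the 0.5 HPA libraries. The replicates of each time lay close together, and the lowest 6 HPA value was far above the highest 0.5 HPA value. The log2 fold change of 4.06 (SE 0.145, limma adjusted p = 7.8e-06) ranked 1 among the 1200 transcripts called higher. The related *runx-2* was at 41.4, 50.6 and 51.3 CPM at 6 HPA, against 33.97, 37.7 and 40.2 CPM at 0.5 HPA. Its libraries did not overlap, but the difference was just short of a call (log2 fold change 0.35, limma adjusted p = 0.0514). *runx-2* was called in 7 of the 18 alternative fits, among them the fits without 6 HPA replicate 1 and without 0.5 HPA replicate 3 (limma adjusted p = 0.0193 and 0.0488).

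*follistatin*, whose product is a secreted inhibitor of Activin and which is required for regeneration, had 24.9, 29.2 and 24.2 CPM at 6 HPA, against 18.0, 17.3 and 19.9 CPM at 0.5 HPA (log2 fold change 0.50, SE 0.0866, limma adjusted p = 0.0104). *activin*, the ligand it binds, had 39.5, 34.2 and 37.0 CPM at 6 HPA, against 51.1, 49.0 and 37.4 CPM at 0.5 HPA. The 0.5 HPA libraries were spread, with replicate 3 at the level of the 6 HPA libraries, and *activin* was not called (log2 fold change −0.30, limma adjusted p = 0.142), but it was called without that replicate (−0.44, limma adjusted p = 0.0106) and with the level of intact-enriched transcripts, described below, as a covariate (−0.39, limma adjusted p = 0.0148). *activin-receptor-1* and *smad23*, the other 2 named TGF-β pathway genes, were not called, with log2 fold changes of −0.11 and −0.07. *FoxD1*, a forkhead factor of the anterior pole, was at 2.78, 3.61 and 2.93 CPM at 6 HPA, against 3.25, 3.76 and 3.99 CPM at 0.5 HPA, and was not called either (log2 fold change −0.24, limma adjusted p = 0.374).

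**Figure D2:**
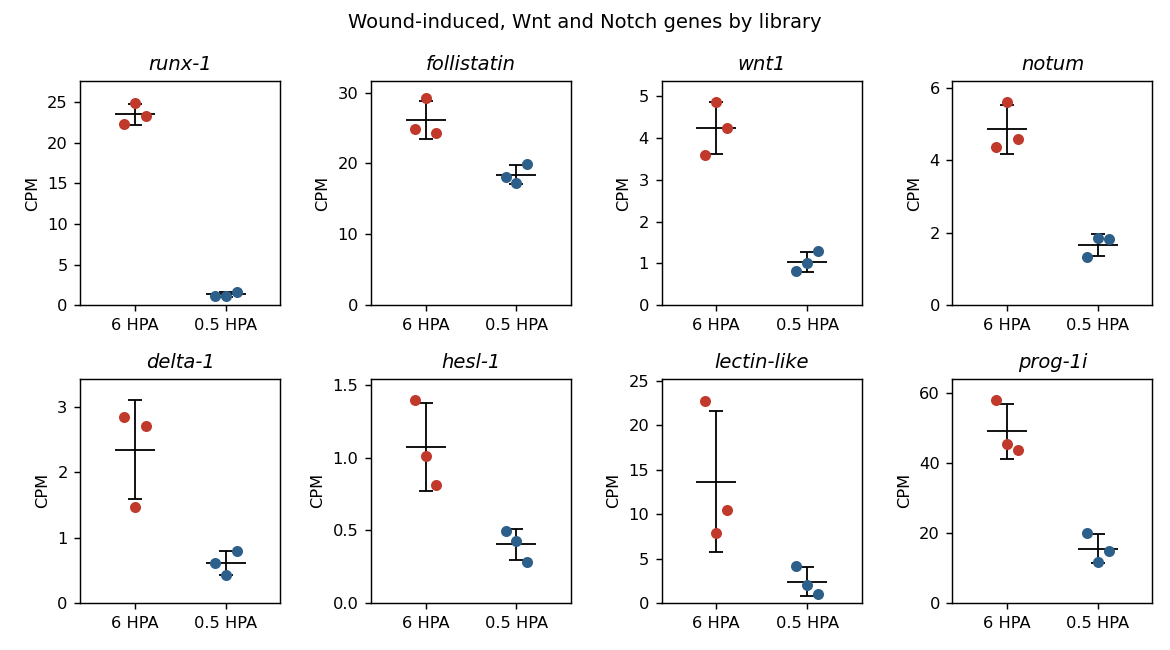
CPM of 8 genes in each library of *control(RNAi)* tail fragments at 6 HPA (left, red) and 0.5 HPA (right, blue); points are libraries, horizontal lines the mean and bars the SD (n = 3). The 6 HPA points lie above the 0.5 HPA points in every panel, with the widest gap for *runx-1* and the widest spread among 6 HPA libraries for *lectin-like*.

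Of the 18 Wnt pathway genes tested, only the ligand *wnt1* and the inhibitor *notum* were called, both higher (median log2 fold change of the list 0.04). Of all transcripts 9.12% were called, so the count of calls in this list was near the general share. *wnt1* was at 3.60, 4.85 and 4.24 CPM at 6 HPA, against 0.820, 1.02 and 1.298 CPM at 0.5 HPA, and its log2 fold change was 1.93 (SE 0.196, limma adjusted p = 0.000802). *notum*, which encodes a secreted enzyme that inactivates Wnt ligands, was at 4.35, 5.61 and 4.57 CPM at 6 HPA, against 1.32, 1.85 and 1.81 CPM at 0.5 HPA. Its log2 fold change was 1.496 (SE 0.173, limma adjusted p = 0.00147). Ligand and inhibitor thus rose over the same hours, without overlap between the times.

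The other Wnt ligands were not called. *wnt11-6* came nearest, with 11.1, 17.8 and 10.6 CPM at 6 HPA, against 7.07, 7.81 and 9.99 CPM at 0.5 HPA (log2 fold change 0.64, limma adjusted p = 0.0892) and no overlap between the times. The posterior ligands *wntP-2* and *wntP-3* had log2 fold changes of 0.05 and −0.13, and *wnt11-1*, also a posterior ligand, had 0.21 (limma adjusted p = 0.329). *wnt11-1* was called without 0.5 HPA replicate 1 (log2 fold change 0.37, limma adjusted p = 0.00709). Of the components that carry the signal inside or at the surface of the receiving cell, *Bcat-1* (β-catenin) was at −0.08, the destruction complex scaffold *APC* at −0.05, the adaptor *dvl-b* at −0.07 and the receptor *Fzd-d* at 0.08. *porcnA* and *porcn-B*, named for the enzyme Porcupine that lipidates Wnt ligands, were at 0.03 and −0.22. The posterior transcription factors *sp5* and *teashirt* had 0.17 and 0.26, and *teashirt* was called without 0.5 HPA replicate 1 (0.35, limma adjusted p = 0.0136). *TCF-3* and *wnt11-3* of this pathway and the Hox gene *Post1* did not pass the filter on low values.

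Of 7 posterior genes tested *wnt1* alone was called, and of 11 anterior genes *follistatin* and *notum* (median log2 fold changes 0.16 and −0.14). Of all transcripts 9.12% were called. Some of the other anterior genes varied widely among libraries of one time. *ndk* (*nou-darake*), a receptor-like gene of the FGF receptor family that confines brain tissue to the head, was at 2.31, 10.7 and 2.60 CPM at 6 HPA, against 2.59, 15.98 and 24.0 CPM at 0.5 HPA. *wnt2-1*, a Wnt ligand of the head, was at 1.44, 5.01 and 1.73 CPM at 6 HPA, against 2.36, 6.68 and 8.07 CPM at 0.5 HPA. For both genes 6 HPA replicate 2 stood with 0.5 HPA replicates 2 and 3, and 0.5 HPA replicate 1 with the lower 6 HPA libraries. Neither was called (log2 fold changes −1.297 and −1.08, SE 0.819 and 0.532, limma adjusted p = 0.385 and 0.258). The same 3 libraries were the highest for *ndk-4* (log2 fold change −0.70, not called). The Wnt inhibitor *sfrp2* was at 8.83, 9.32 and 8.47 CPM at 6 HPA, against 9.10, 16.2 and 18.3 CPM at 0.5 HPA, with only 0.5 HPA replicates 2 and 3 raised. It was not called over the 6 libraries (−0.64, limma adjusted p = 0.115), and was called without 0.5 HPA replicate 1 (−0.95, limma adjusted p = 0.00139).

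These 3 libraries were also the highest in a summed level of transcripts that were chosen on other libraries. The 200 transcripts most enriched in intact *control(RNAi)* animals over *control(RNAi)* tail fragments at 24 HPA, a set chosen after these values were seen and to which *ndk* belongs, summed to 572, 3549 and 977 CPM at 6 HPA, against 1746, 3369 and 3554 CPM at 0.5 HPA. The sum in intact control animals was 12106, 12060 and 11753 CPM. The groups overlapped (two-sided exact permutation p = 0.3), and 0 of the 151 of these transcripts that were tested were called higher and 2 lower. The covariate fit used another measure of this set, the median log2 level of its transcripts in each library. This median was −1.58, 1.75 and −1.38 at 6 HPA, against −0.998, 1.28 and 1.91 at 0.5 HPA. With this median as a covariate, *ndk* had a log2 fold change of −0.36 and was not called (limma adjusted p = 0.355). In the same fit *wnt2-1* had −0.47 and was called, just under the threshold. *wnt11-6* was called higher in that fit (log2 fold change 0.85, limma adjusted p = 0.000423), and *runx-1*, *wnt1*, *notum* and *delta-1* remained called. The part of this measure in the anterior levels was not tested further.

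**Figure D3:**
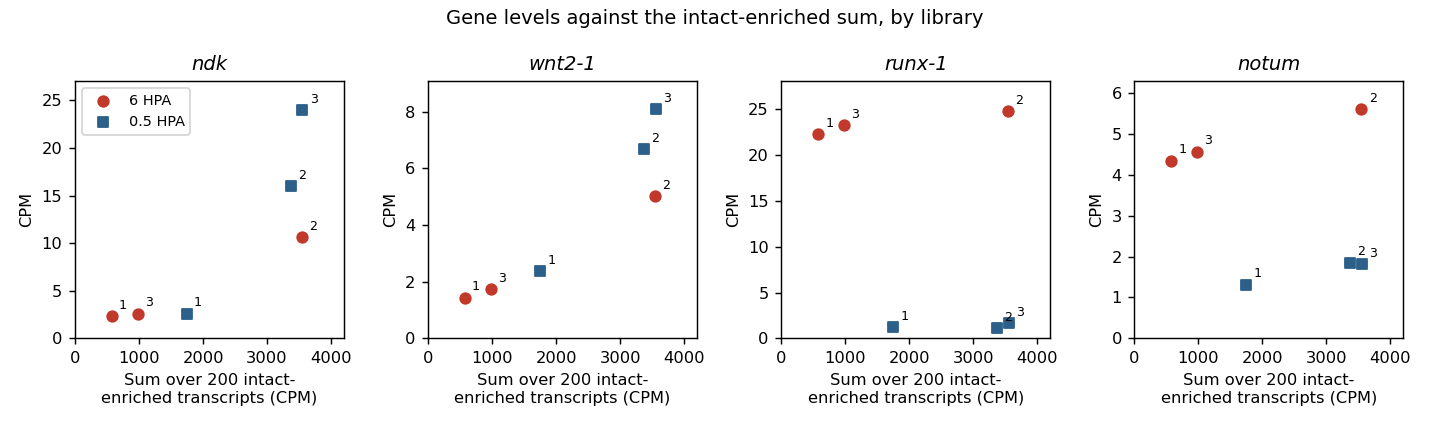
CPM of *ndk*, *wnt2-1*, *runx-1* and *notum* (y axis) against the summed CPM of 200 transcripts enriched in intact animals (x axis) in the 6 *control(RNAi)* libraries; red circles are 6 HPA, blue squares 0.5 HPA, and numbers are replicates. *ndk* and *wnt2-1* are high in the 3 libraries with the highest sums, 6 HPA replicate 2 and 0.5 HPA replicates 2 and 3, and *runx-1* and *notum* separate by time.

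The 4 genes listed for the Notch pathway were all higher at 6 HPA. All 5 members of a list of Notch and FGF receptor-like genes were called, 4 higher and the FGF receptor-like gene *fgfrl-b* lower. Of all transcripts 9.12% were called and 5.37% were called higher. Among the 4, *hesl-1* passed the filter on low values only through its 6 HPA libraries. *Dll-1* and *DLL-2*, whose IDs do not state a gene family, were not in the list (log2 fold changes −0.40, not called, and −0.42, called lower). *delta-1*, which encodes a ligand of Notch, was at 2.86, 1.48 and 2.71 CPM at 6 HPA, against 0.611, 0.427 and 0.799 CPM at 0.5 HPA. Its log2 fold change was 1.76 (SE 0.298, limma adjusted p = 0.00947), and without 6 HPA replicate 3 the call was lost (limma adjusted p = 0.0566). The receptor *Notch-1* had 184, 170 and 181 CPM at 6 HPA, against 150, 123 and 136 CPM at 0.5 HPA (log2 fold change 0.39, SE 0.0704, limma adjusted p = 0.0124).

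*hesl-1* and *hesl-3* encode Hes-like repressors, a family that in other animals is a target of Notch. *hesl-1* was at 1.401, 1.01 and 0.809 CPM at 6 HPA, against 0.497, 0.427 and 0.285 CPM at 0.5 HPA (log2 fold change 1.22, SE 0.269, limma adjusted p = 0.0268). *hesl-3* was at 1.92, 1.82 and 2.04 CPM at 6 HPA, against 0.649, 1.14 and 1.01 CPM at 0.5 HPA (log2 fold change 1.00, SE 0.218, limma adjusted p = 0.0255). Both are weakly expressed, and their calls did not hold in every subset of the libraries. The limma adjusted p of *hesl-1* was 0.0763 and 0.0661 without 0.5 HPA replicates 2 and 3, and that of *hesl-3* was 0.0771 and 0.109 without 6 HPA replicates 1 and 3. *fgfrl-b* was at 29.8, 25.2 and 27.4 CPM at 6 HPA, against 39.1, 35.8 and 36.5 CPM at 0.5 HPA (log2 fold change −0.44, SE 0.0707, limma adjusted p = 0.00764).

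In the Hedgehog pathway 3 of the 7 genes tested rose and none fell, against 5.37% of all transcripts called higher (median log2 fold change 0.17). All 3 had a mean of 10 to 50 CPM, and of all transcripts at that level 14.3% were called in either direction. The transcription factor *gli-1* was at 46.7, 46.6 and 44.9 CPM at 6 HPA, against 38.4, 33.4 and 33.7 CPM at 0.5 HPA (log2 fold change 0.39, limma adjusted p = 0.00746). The receptor *ptc* rose by 0.37 (limma adjusted p = 0.0218), and its call was lost without 6 HPA replicate 1 (0.0778) or 0.5 HPA replicates 1 or 2 (0.0516 and 0.0837). The inhibitor *SuFu* rose by 0.25 (limma adjusted p = 0.0375) and was not called when any 1 of the 6 libraries was left out (limma adjusted p between 0.0649 and 0.114). The ligand *Hh* did not pass the filter, and the signal transducer *smoothened* was at −0.09.

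The DNA replication genes *mcm2* and *PCNA* were higher at 6 HPA. Of 5 cell cycle and replication genes tested, 4 rose, *mcm2*, *PCNA*, *chk2* and *CyclinB2*, and none fell (median log2 fold change 0.32). Of all transcripts 5.37% were called higher, and of those with a mean of 10 to 50 CPM 14.3% were called in either direction. *mcm2*, a subunit of the replicative helicase, had 52.7, 44.8 and 48.2 CPM at 6 HPA, against 31.7, 31.1 and 28.9 CPM at 0.5 HPA (log2 fold change 0.66, SE 0.0692, limma adjusted p = 0.000927). *PCNA*, the clamp that holds DNA polymerase on its template, had 49.2, 47.3 and 49.6 CPM at 6 HPA, against 36.1, 33.96 and 32.9 CPM at 0.5 HPA (log2 fold change 0.50, SE 0.0524, limma adjusted p = 0.000927). The checkpoint kinase *chk2* and the mitotic *CyclinB2* rose by 0.32 and 0.28 (limma adjusted p = 0.00758 and 0.0308).

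Markers of neoblasts did not move as one. Of 12 tested, *mcm2*, *PCNA* and *soxP-2* rose, *soxP-1* fell and 8 were not called, against 9.12% of all transcripts called (median log2 fold change 0.05). *soxP-2*, a Sox-family transcription factor, had 37.3, 34.5 and 37.0 CPM at 6 HPA, against 24.0, 25.9 and 25.8 CPM at 0.5 HPA (log2 fold change 0.52, limma adjusted p = 0.00118). *soxP-1* had 14.9, 14.7 and 15.3 CPM at 6 HPA, against 17.8, 18.5 and 18.6 CPM at 0.5 HPA (log2 fold change −0.29, limma adjusted p = 0.0198). The fall of *soxP-1* was not called without 6 HPA replicates 1 or 3 (limma adjusted p = 0.0651 and 0.0625) or 0.5 HPA replicates 2 or 3 (0.0799 and 0.0601). *piwi-1*, the usual marker of all neoblasts, was at 564, 497 and 532 CPM at 6 HPA, against 503, 510 and 498 CPM at 0.5 HPA, and its 2 groups overlapped (log2 fold change 0.07, SE 0.0523, limma adjusted p = 0.440).

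**Figure D4:**
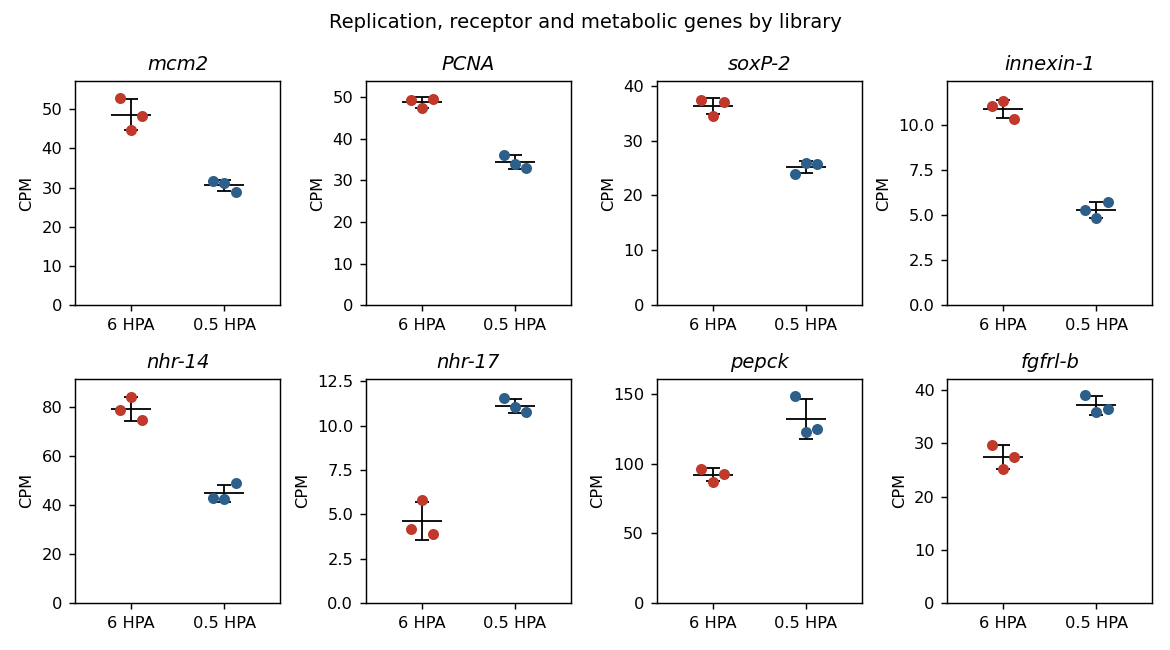
CPM of 8 further called genes in each library of *control(RNAi)* tail fragments at 6 HPA (left, red) and 0.5 HPA (right, blue); points are libraries, horizontal lines the mean and bars the SD (n = 3). The genes *mcm2*, *PCNA*, *soxP-2*, *innexin-1* and *nhr-14* are higher and *nhr-17*, *pepck* and *fgfrl-b* lower at 6 HPA, with no overlap.

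The largest change among epidermal genes was that of *prog-1i*. It belongs to the *prog* family that marks early epidermal progeny of neoblasts, and was at 58.0, 45.3 and 43.8 CPM at 6 HPA, against 20.05, 11.7 and 14.8 CPM at 0.5 HPA (log2 fold change 1.68, SE 0.182, limma adjusted p = 0.00109). Of the 18 *prog* transcripts tested 2 rose, *prog-1i* and *prog-1e* (0.20, limma adjusted p = 0.0207), and none fell, against 5.37% of all transcripts called higher, and the family's median was 0.17. Without 6 HPA replicates 1 or 3 or 0.5 HPA replicates 2 or 3 *prog-1e* was not called (limma adjusted p = 0.0716, 0.0857, 0.0782 and 0.0624). None of the 5 transcripts of the later epidermal *AGAT* family was called (median 0.12). Of these, 4 were without overlap higher at 6 HPA, as were 14.1% of all transcripts tested. Members of both families may share reads with close paralogs, so the split among members is uncertain.

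Further genes rose that belong to no list or to a list with few calls. *lectin-like*, named for a carbohydrate-binding protein family, was at 22.7, 7.84 and 10.4 CPM at 6 HPA, against 4.18, 2.06 and 0.971 CPM at 0.5 HPA. The log2 fold change was 2.53 (SE 0.511, limma adjusted p = 0.0195), an SE above that of any other called gene named here. Its call was lost without 6 HPA replicates 1 or 3 (limma adjusted p = 0.0593 and 0.0727) or 0.5 HPA replicate 2 (0.0687). *innexin-1*, a gap junction protein, had 11.1, 11.3 and 10.3 CPM at 6 HPA, against 5.26, 4.85 and 5.74 CPM at 0.5 HPA (log2 fold change 1.03, SE 0.0934, limma adjusted p = 0.000438). *titin*, which encodes the giant elastic protein of muscle, had 28.2, 20.9 and 25.98 CPM at 6 HPA, against 15.2, 11.1 and 16.1 CPM at 0.5 HPA (log2 fold change 0.83, limma adjusted p = 0.0137). Without 6 HPA replicates 1 or 3 *titin* was not called (limma adjusted p = 0.0524 and 0.0727). *mex3-3*, named for a family of RNA-binding proteins, *ISWI-2*, a chromatin remodelling ATPase, and *albino* rose by 0.65, 0.56 and 0.66. Each of these 3 had an SE of at most 0.0746. *HP1-1*, a heterochromatin protein, rose by 0.24 (limma adjusted p = 0.0213), and not without 6 HPA replicate 3 (0.0887).

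Nuclear hormone receptors are transcription factors gated by small lipid-like ligands. Of 19 tested, *nhr-14*, *nhr-13* and *nhr-12* rose, *nhr-17* fell and 15 were not called, against 9.12% of all transcripts called (median log2 fold change 0.04). *nhr-14* had 78.6, 84.1 and 74.7 CPM at 6 HPA, against 42.6, 42.6 and 48.8 CPM at 0.5 HPA (log2 fold change 0.83, SE 0.0686, limma adjusted p = 0.000299). *nhr-17* had 4.16, 5.82 and 3.87 CPM at 6 HPA, against 11.5, 11.05 and 10.8 CPM at 0.5 HPA (log2 fold change −1.27, SE 0.145, limma adjusted p = 0.00137), the largest fall among named transcripts that were called. *nhr-13* rose by 0.26 (limma adjusted p = 0.0195) and was not called without 6 HPA replicate 1 (0.0692) or 0.5 HPA replicates 2 or 3 (0.0558 and 0.0561). The rise of *nhr-12* by 0.24 was just under the threshold (limma adjusted p = 0.0454) and was not followed through the alternatives.

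Of the 241 named transcripts tested 33 rose and 9 fell (17.4% called, against 9.12% of all transcripts). The share called depended on level, with 2.25% under 2 CPM, 14.3% at 10 to 50 CPM and 20.2% at 50 CPM or more. The difference between named and all transcripts can therefore not be read apart from level. After *nhr-17*, the largest fall was that of *pepck*, whose product catalyses a committed step of gluconeogenesis, with 96.1, 86.9 and 92.6 CPM at 6 HPA, against 149, 123 and 125 CPM at 0.5 HPA (log2 fold change −0.52, SE 0.0764, limma adjusted p = 0.00477). Several of the other falls were of transcription factors. The proneural factor *ascl-1* fell by 0.38 (limma adjusted p = 0.00712), *usf* by 0.30 (0.00315), *DLL-2* by 0.42 (0.0203) and *ets-1* by 0.31 (0.0382). *DLL-2* was placed among them as a Distal-less homeobox gene from its name alone. Its ID does not state a gene family, so this placement is open. *DLL-2* and *ets-1* were each not called without 6 HPA replicate 3 (limma adjusted p = 0.0872 and 0.0895), 0.5 HPA replicate 2 (0.0679 and 0.103) or 0.5 HPA replicate 3 (0.0598 and 0.0719), and in addition *DLL-2* without 6 HPA replicate 1 (0.0615) and *ets-1* without 0.5 HPA replicate 1 (0.0822). *MyD88-1*, an adaptor of Toll-like receptors, fell by 0.25 at a limma adjusted p of 0.0491 and was not called without 6 HPA replicates 1, 2 or 3 (0.064, 0.109 and 0.153) or 0.5 HPA replicates 1 or 2 (0.108 and 0.162). With median-of-ratios scaling *DLL-2*, *ets-1* and *MyD88-1* were not called.

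Of the transcripts without a gene name, SmedASXL_016645 and SmedASXL_016647 showed the largest rises among those of at least 1 CPM. They were at 13.1, 3.15 and 3.63 CPM and at 7.87, 1.89 and 2.45 CPM at 6 HPA, against at most 0.447 and 0.305 CPM at 0.5 HPA, and in both 6 HPA replicate 1 was far above the other replicates (log2 fold changes 3.46 and 3.23, limma adjusted p = 0.00335 and 0.00401). Both were under 0.5 CPM in every 0.5 HPA library. They passed the filter on low values only through their 6 HPA libraries, so the filter could admit them only with a rise. SmedASXL_069392 fell to 0.168, 0.326 and 0.109 CPM at 6 HPA, against 4.29, 3.91 and 2.97 CPM at 0.5 HPA (log2 fold change −3.71, limma adjusted p = 0.000228). It passed the filter only through its 0.5 HPA libraries, so the filter could admit it only with a fall. SmedASXL_016645, SmedASXL_016647 and SmedASXL_069392 were each tested in 14 of the alternative fits, and were called in each of those. SmedASXL_001353 was at 1.82, 3.73 and 3.04 CPM at 6 HPA, against 22.3, 25.6 and 24.0 CPM at 0.5 HPA (log2 fold change −3.08, limma adjusted p = 0.000161).

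Named markers of other cell types were few. The single gut marker was at −0.18 without overlap, the 2 neural markers at −0.08 and −0.16, and the 4 parenchymal genes between −0.31 and 0.13, with *ets-1* the only call among these 7 genes. Of the 2 muscle and matrix genes, *titin* was called higher (0.83) and *LOXL2* was at −0.21. In a list of homeobox and neural transcription factors that did not include *DLL-2*, 19 were tested, and *hesl-1* and *hesl-3* rose and *ascl-1* fell (median log2 fold change −0.23). As said above, *hesl-1* passed the filter only through its 6 HPA libraries. Of all transcripts 9.12% were called. *alx-3* itself was at 13.4, 15.3 and 14.9 CPM at 6 HPA, against 12.4, 12.5 and 13.7 CPM at 0.5 HPA, with overlap, and was not called (log2 fold change 0.17, SE 0.0778, limma adjusted p = 0.215).

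The levels at later times, given as a description with no test, set apart genes that were high at 6 HPA from genes that went on rising. The mean of *runx-1* in *control(RNAi)* libraries was 1.33 ± 0.298 CPM at 0.5 HPA, 23.5 ± 1.28 at 6 HPA, 4.56 ± 0.448 at 24 HPA, 4.51 ± 1.43 at 48 HPA and 2.62 ± 0.355 at 72 HPA (SD, n = 3 each), with 0.693 ± 0.049 CPM in intact animals. The means of *wnt1* and *delta-1* were likewise highest at 6 HPA, at 4.23 and 2.35 CPM, and were 1.66 and 0.920 CPM at 24 HPA. *notum* had means of 4.84 CPM at 6 HPA, 3.95 at 24 HPA, 3.23 at 48 HPA and 5.93 at 72 HPA, and the SD of 2.29 CPM at 72 HPA exceeds the difference between 6 and 72 HPA. *PCNA* had means of 34.3 CPM at 0.5 HPA, 48.7 at 6 HPA, 64.4 at 24 HPA, 74.1 at 48 HPA and 75.2 at 72 HPA, the last of which lie within their SD of 6.81 and 5.72 CPM. The mean of *prog-1i* was highest at 24 HPA (85.4 ± 9.57 CPM). *nhr-17* was lowest at 6 HPA, at 4.62 ± 1.05 CPM, and at 72 HPA, at 11.8 ± 0.979 CPM, its mean differed from that at 0.5 HPA (11.1 ± 0.385 CPM) by less than the SD at 72 HPA. *titin*, at 14.1 ± 2.68 CPM at 0.5 HPA, was at 0.867 ± 0.411 CPM in intact animals, which are whole worms and no baseline for a tail.

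**Figure D5:**
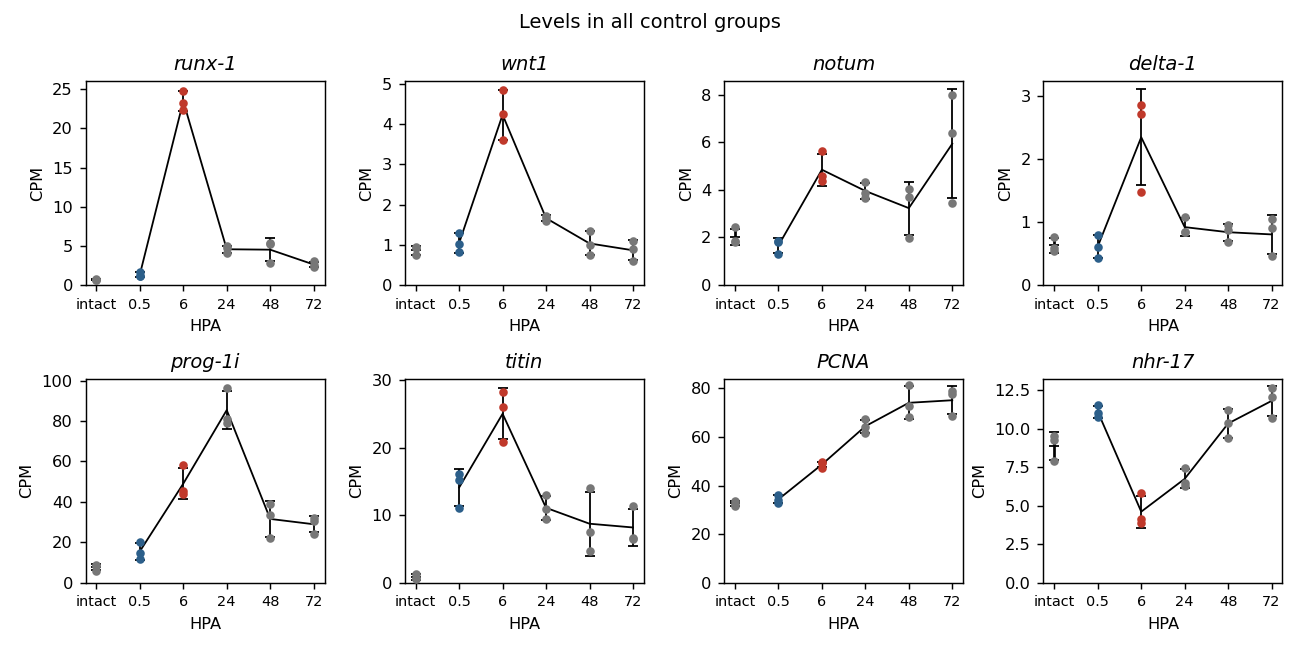
CPM of 8 genes in all *control(RNAi)* groups, intact animals and then tail fragments in order of time (x axis, HPA, not to scale); points are libraries, lines join the means of the tail groups and bars are the SD (n = 3). *runx-1*, *wnt1*, *delta-1* and *titin* have their highest mean at 6 HPA, *prog-1i* at 24 HPA and *PCNA* at 72 HPA, and *nhr-17* has its lowest at 6 HPA.

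Whether the change over these hours was particular to *control(RNAi)* tails was tested against *alx-3(RNAi)* tails at the same times. *alx-3* was at 13.4, 15.3 and 14.9 CPM in *control(RNAi)* and 4.83, 5.99 and 4.71 CPM in *alx-3(RNAi)* libraries at 6 HPA, and at 12.4, 12.5 and 13.7 CPM in *control(RNAi)* and 3.94, 5.56 and 5.29 CPM in *alx-3(RNAi)* libraries at 0.5 HPA. A limma interaction over the 12 libraries called 0 (0.0%) of 23391 transcripts, with 1304 at an unadjusted p under 0.05 and a lowest adjusted p of 0.185, so no difference in the response between the 2 conditions was detectable at this replication.

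The *alx-3(RNAi)* fragments share no library with the controls. Among them 2065 (9.71%) of 21259 transcripts were called between 6 and 0.5 HPA, 1071 higher and 994 lower. Of the transcripts called higher, 745 were called in both conditions, which is 62.1% of the *control(RNAi)* and 69.6% of the *alx-3(RNAi)* calls. Of those called lower, 363 were, 43.3% of the *control(RNAi)* and 36.5% of the *alx-3(RNAi)* calls. *runx-1* had a log2 fold change of 4.06 in *control(RNAi)* and 3.18 in *alx-3(RNAi)* fragments, and the difference of 0.88 (SE 0.287) had an unadjusted limma p of 0.00954 and an adjusted p of 0.815. *delta-1* had 1.76 in *control(RNAi)* and 2.75 in *alx-3(RNAi)* fragments (difference −0.99, SE 0.467, limma adjusted p = 0.887). *wnt1* and *notum* differed by 0.60 (SE 0.379) and 0.19 (SE 0.230), neither of which was called (limma adjusted p = 0.898 and 0.933).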

How the data were processed

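RNA from 36 libraries was read in pairs and, per the submitters' processing notes, trimmed with Trimmomatic 0.39, quantified per transcript of the Smed_ASXL transcriptome with Salmon 1.4.0 and normalized with DESeq2 1.30.1. The authors deposited 1 table per time point whose signal values, named RPKM in the header, are DESeq2 normalized counts: their row means equal the base mean of the accompanying result tables. Those tables hold the authors' own *alx-3(RNAi)* fold changes and p-values and were not used. Differences in scaling between the 2 tables are removed only through the library totals.

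The 3 *control(RNAi)* libraries at 6 HPA and the 3 at 0.5 HPA were divided by their totals (CPM). Of 58949 transcripts in both tables, those with at least 0.5 CPM in at least 3 of the 6 libraries were compared on log2(CPM + 0.1) with limma 3.58.1 in R 4.3.3 (lmFit, eBayes with a trend, two-sided, Benjamini-Hochberg). The method was tested on simulated data. Replicates are biological triplicates per the study's methods. The interaction with *alx-3(RNAi)* used the 12 tail libraries of both times. Whole reads were not recovered from the normalized counts, so no count model was run, and counting error of single values is not given.

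Transcript IDs supplied the gene names where they carry one, and the published ID that of *alx-3*. Named genes are *alx-3*, the genes of the published heatmap that an ID names, the 15 largest rises and 15 largest falls of named transcripts called without overlap (9 fell), the wound-induced, Wnt, anterior and posterior lists, up to 3 called members of each other list, and 4 unnamed transcripts. *Notch-1*, *Dll-1*, *CyclinB2*, *nhr-12*, *piwi-1*, *smoothened*, *Hh*, *activin-receptor-1* and *smad23* were named after their values were seen. The lists, members and tests were chosen with earlier results of these data known. Lists are described by counts and medians, with no set test. Lists of pharynx, protonephridia, stress and mitochondrial genes had no named member. Alternatives were median-of-ratios and quantile scaling, totals without ribosomal RNA, pseudocounts of 0.02 and 0.5, no filter, a mean of at least 1 CPM, one fit over 12 libraries, a replicate block, no trend, a fold threshold of 1 on the log2 scale, and each library left out in turn. A covariate for 200 transcripts enriched in intact animals, and leaving out 6 HPA replicate 2 and 0.5 HPA replicate 1 together, were added after seeing the data.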

Additional observations from a re-analysis of the deposited data

How the results depend on the processing

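With 3 libraries a time, no uncut tail and no read counts, small changes of weakly expressed genes limit what could be called. The 2038 calls (1200 higher, 838 lower) became 180 (109 and 71) with a log2 fold threshold of 1, and 775 (520 and 255) without a trend in eBayes. Leaving out 1 library gave 779 to 1794 calls, 549 to 1092 higher and 230 to 769 lower. Lower calls numbered 375 with median-of-ratios scaling, 1345 in one fit over 12 tail libraries, 1425 with the intact-enriched covariate and 1541 without 6 HPA replicate 2 and 0.5 HPA replicate 1 together; why was not tested, except that leaving out those 2 libraries by construction aligns the intact-enriched level with time. In that fit 9 named genes were called that the 6 libraries did not call, *ndk*, *ndk-3*, *ndk-4*, *wnt2-1*, *sfrp2* and *sfrp3* lower (−2.95 to −0.27 on the log2 scale) and *sp5*, *teashirt* and *wnt11-1* higher (0.29 to 0.35). The other alternatives kept each count within 1.5 times.

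Same-numbered libraries correlated at 0.51, 0.24 and −0.22 in their deviations, and differently numbered ones at −0.56 to 0.48. With so few libraries this cannot settle whether replicates of the same number were paired. The fit with the replicate block called 2082 transcripts (1196 higher, 886 lower), and 0 in the interaction, which stayed at 0 in every alternative run.

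*runx-1*, *wnt1*, *notum*, *prog-1i*, *innexin-1*, *nhr-14*, *mcm2*, *PCNA*, *soxP-2*, *albino*, *mex3-3*, *ISWI-2*, *ascl-1* and *nhr-17* remained called in all 18 alternatives run for them, *runx-1* with log2 fold changes of 3.72 to 4.22. Of the 38 called transcripts followed through the alternatives, unnamed ones included, 19 lost their call without a trend and 6 with median-of-ratios scaling. Those 6 were the falls of *DLL-2*, *ets-1*, *soxP-1* and *MyD88-1* and the rises of *SuFu* and *HP1-1*. Signs turned only among genes not called. Leaving out 1 library gave −0.14 to 0.076 for *APC*, −0.011 to 0.19 for *Fzd-d*, −0.025 to 0.065 for *porcnA*, −0.34 to 0.90 for *sfrp-1*, −0.19 to 0.017 for *sfrp3* and −0.52 to 0.12 for *ndk-3*. The covariate gave 0.054 for *APC*, 0.047 for *sfrp3* and 0.20 for *ndk-3*, quantile normalization −0.022 for *porcnA*, and leaving out both libraries −0.48 for *sfrp-1*.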
